A study of Mus musculus with 2 samples.

Results

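Group 2 innate lymphoid cells (ILC2) are tissue lymphocytes that carry no rearranged antigen receptor. The transcription factor Gata3 sets their identity, they sense alarmins of damaged epithelium such as IL-33 through the receptor encoded by Il1rl1, and they answer with the type 2 cytokines IL-5 and IL-13 and with the repair factor amphiregulin. IL-5 sustains eosinophils, and IL-13 acts on epithelium, macrophages and fibroblasts, which is why these cells are studied in lung inflammation and fibrosis.

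ILC2 were taken from 2 single-cell libraries of living CD45+ leukocytes sorted from lungs of wild-type C57BL/6N mice of 10 to 16 weeks. The BLM library came from mice given 50 µg of the antibiotic bleomycin, which damages lung epithelium and is followed by scarring, into the trachea 15 days earlier, and the naive library from untreated mice. Each library pooled 3 mice and nothing in the tables used here ties a cell to a mouse. Because a group was a single library, BLM and naive could not be compared by a test. Library, pool of mice and treatment cannot be told apart, and every difference below describes these 2 libraries. Intervals are 95% intervals for counting error only.

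Members were chosen by measured values. A cell needed 200 or more genes, at most 15% mitochondrial UMIs (unique molecular identifiers, 1 per captured transcript), at least 1 Gata3 UMI and a sum of 3 or more UMIs over Gata3, Il1rl1, Rnf128, Calca, Il5, Il13 and Hlf. It could hold 0 or 1 UMI of Cd3e, Cd3d and Cd3g together and none of Foxp3, Cd79a, Ms4a1, Cpa3, Mcpt8, Ms4a2 or Ncr1. This rule held for 123 of 8451 cells. BLM contributed 47 from 4526 cells and naive 76 from 3925. Just inside the limit lay 8 BLM and 5 naive cells with a sum of exactly 3, and just outside it 10 BLM and 12 naive cells with a sum of 2. None of these 123 cells had a barcode that also occurred in the other library, although the libraries shared 22 barcodes in all.

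The 123 cells did not all group together. When all cells were clustered without the 17 genes of the rule, 1 cluster held 98 of the 123, namely 25 of 47 in BLM and 73 of 76 in naive. Of the other 22 BLM cells, 10 lay in 3 macrophage clusters (led by Spp1 and Arg1, by Mmp12, Apoe and C1qa, or by Ccl8, Cd163 and Lyve1). Another 6 lay in a T cell cluster led by Ctla4, Foxp3 and Tnfrsf4, and 3 in a cluster led by the gamma delta T cell genes Cd163l1, Tcrg-C1 and Trdc. The remaining 3 BLM cells and the 3 naive cells outside the cluster were spread singly over other clusters. Some of the 22 held many UMIs of the rule genes. In the Ccl8 cluster 1 cell had a sum of 27 (Il5 10, Il13 8, Il1rl1 4). In the gamma delta cluster 1 cell had a sum of 26 (Il5 5, Calca 6, Il1rl1 4). Leaving such cells out lowers the BLM share of the grouped cells. In 9 of the 10 BLM cells in macrophage clusters the sum was reached with Rnf128, which encodes the ubiquitin ligase GRAIL, and without a UMI of Il1rl1, Il5, Il13 or Calca.

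These cells carried much of the RNA. Lyz2, a lysozyme gene of macrophages and monocytes, held between 198 and 868 UMIs in each of the 9, against at most 7 UMIs in any of the 98. The 12 macrophage and monocyte markers took 2.05% to 8.95% of the UMIs of the 10 BLM cells and at most 0.423% in any of the 98. The 10 cells held 49.8% of all UMIs of the 47 BLM cells, and the 22 cells outside the cluster held 65.6%. The genes highest in BLM over all 123 cells were mostly macrophage genes, led by Spp1, Apoe, C1qc, C1qb and Cd63. One naive cell outside the cluster also held macrophage markers (4.50% of its UMIs). The name ILC2 is used below for the 98 grouped cells, a choice made after seeing the data, and the value over all cells that met the rule is given beside the main results and wherever its sign differs. Cells that look like 2 cells captured together were kept, and 1 of the 47 BLM cells and none of the 98 had a doublet score in the highest 3%.

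**Figure D1:**
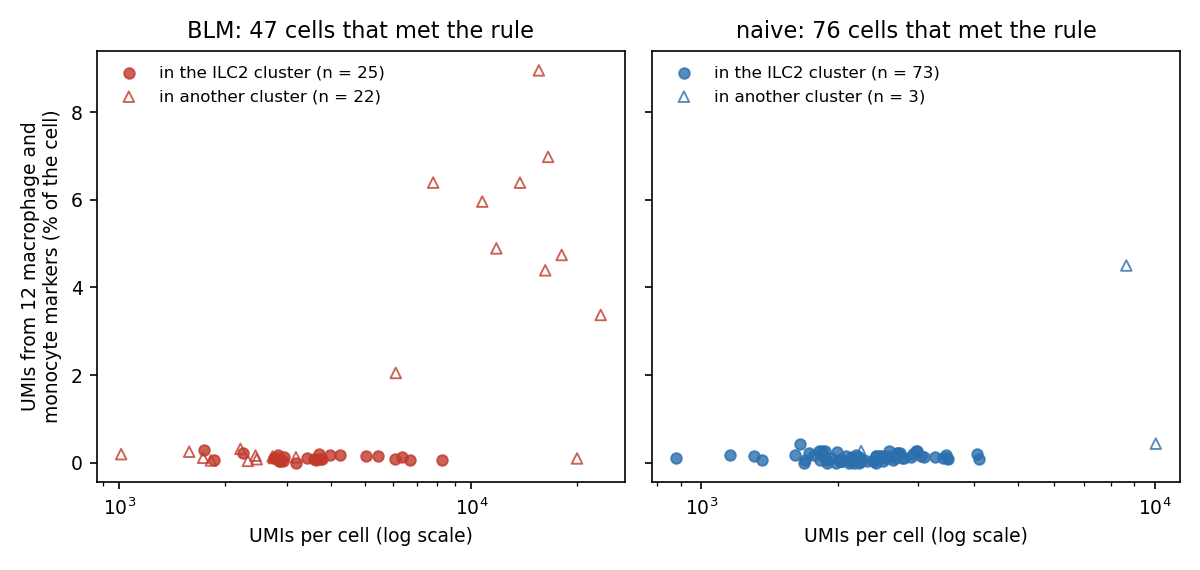
Every cell that met the rule, by its UMIs (log axis) and by the percent of them from 12 macrophage and monocyte markers, in BLM (left) and naive (right). Filled circles are cells of the ILC2 cluster, all at or below 0.423%. Open triangles are cells of other clusters, of which 10 in BLM lie between 2.05% and 8.95% and 1 in naive at 4.50%.

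The grouped ILC2 had a median of 3567 UMIs and 1491 genes in BLM and of 2246 UMIs and 1152 genes in naive, so BLM cells were deeper. All 98 had Gata3, which the rule demands, and Il1rl1, which counts towards its sum, was seen in 23 of 25 and 72 of 73. The whole cluster was formed without these genes. There Gata3 was seen in 36 of 40 BLM and 107 of 121 naive cells, and Il1rl1 in 36 of 40 and 110 of 121. Of the markers of other cells, the ILC3 genes Il17a, Il17f, Il22 and Il23r, the NK and ILC1 genes Eomes and Tbx21, and the basophil and mast cell gene Fcer1a were at 0 in the 98 cells. Kit, which is on both the ILC3 list and the basophil and mast cell list, was not. It was at 176 CPM in BLM and 286 in naive, in 40% and 39.7% of cells. In all cells that did not meet the rule Kit was at 9.29 and 17.8 CPM. Of 12 NK and ILC1 genes, 5 in BLM and 6 in naive had a UMI, summing to 228 and 87.6 CPM. From the T cell list, 6 of 14 genes in BLM and 11 of 14 in naive had at least 1 UMI, with summed levels of 693 and 964 CPM (UMIs per 1000000 UMIs of the same cells). Trbc2, the constant region of the T cell receptor beta chain, accounted for 466 CPM in BLM and 368 in naive, against 1122 and 1173 in T cells without Foxp3. Of 12 macrophage and monocyte markers 10 had a UMI in either library, summing to 1117 and 1273 CPM with C1qa and Marco at 0, and the 7 B cell markers summed to 51.7 CPM in BLM and 467 in naive. The part these markers play in the differences below was not tested. The cluster held 15 further BLM and 48 further naive cells that failed the rule. Most of these failed on a marker of another lineage (10 and 35), and in naive 16 of them had a Cpa3 UMI, a protease gene of mast cells.

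Genes of other abundant cells were seen unevenly in ILC2 of the 2 libraries. Igkc, an immunoglobulin light chain gene of B cells, was seen in 39 of 73 naive and 2 of 25 BLM ILC2 (356 and 20.7 CPM), and Spp1, a macrophage gene, in 1 of 73 naive and 9 of 25 BLM ILC2. For Il5, Areg and Top2a, shares of cells with a UMI are therefore given beside those of B cells, and after thinning each cell to 1000 UMIs. For other genes the shares are mostly as counted, and BLM cells were deeper. Thinned shares in BLM and naive ILC2 were 18.3% and 3.84% for Il13, and 43.4% and 19.5% for Calca. They were 50.7% and 28.2% for Csf2, and 51.1% and 76.3% for Il7r.

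ILC2 made up a smaller share of sorted leukocytes in BLM. The grouped cells were 0.552% (interval 0.358 to 0.814) of BLM cells and 1.86% (1.46 to 2.33) of naive cells, 3.37-fold fewer in BLM. Counting every cell that met the rule, the shares were 1.04% (0.764 to 1.38) and 1.94% (1.53 to 2.42), 1.86-fold fewer. Of the 10 leading genes of the cluster, Il5 (log2 ratio 2.504) and Csf2 (1.352) were over 2-fold apart between its BLM and naive cells, and Il5, a rule gene, had not entered the clustering. The clustering was therefore repeated without the 10 leading genes and without all genes 2-fold apart in the cluster. It grouped 27 BLM and 71 naive rule cells, 0.597% and 1.81%, and these included 25 of the 25 and 71 of the 73. A share says nothing of cell number, because the shares of one library sum to a fixed total. In the same libraries NK cells were 1.70% in BLM and 4.56% in naive, and T cells without Foxp3 were 13.7% and 13.5%.

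Several genes outside the rule stood out in the grouped ILC2 of both libraries against all other leukocytes. Since the cells were chosen and clustered on expression this is a description of their identity. Among genes seen in at least 25% of the ILC2 of both libraries, a limit that left out Il13 and Calca, the 12 leading genes by the smaller of the 2 lower interval ends were Csf2, Il5, Stab2, Gata3, Hlf, Ccdc184, Ptpn13, Pcsk1, Il1rl1, Cntn1, Grin2d and Nrgn, of which Il5, Gata3, Hlf and Il1rl1 belong to the rule. Csf2, which encodes the growth factor GM-CSF, was at 1428 CPM in BLM ILC2 and 777 in naive ILC2, against 3.75 and 1.71 CPM in all other cells. Stab2, a scavenger receptor gene better known from liver endothelium, was at 383 and 391 CPM against 1.01 and 3.99. The list also held genes best known from neurons and endocrine cells, among them Pcsk1 (a prohormone convertase, 248 and 158 CPM), Cntn1 (a neural adhesion molecule, 259 and 146 CPM), Grin2d (a glutamate receptor subunit, 155 and 146 CPM) and Nrgn (a calmodulin-binding protein, 641 and 333 CPM). Each of these 4 was below 10 CPM in the pool of all other cells of each library. That pool hides differences between cell types for Nrgn. In BLM and naive, Nrgn was at 47.7 and 44.9 CPM in NK cells. It was at 32.8 and 10.4 CPM in T cells without Foxp3, and at 0 in T cells with Foxp3 of both libraries. Between BLM and naive, Pcsk1, Cntn1, Grin2d and Nrgn had log2 ratios above 0 in the grouped cells and, over all cells that met the rule, of -0.66, -0.55, -1.19 and -0.45.

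Against T cells without Foxp3 of the same library, ILC2 had more of the regulators Rora (log2 ratio 2.44, 2.21 to 2.67, in BLM and 2.65, 2.43 to 2.87, in naive) and Id2 (2.001 and 1.951), both needed for ILC2 development. Il2ra, the high-affinity subunit of the IL-2 receptor, was higher by 3.21 and 3.30 on the log2 scale, and Klrg1, an inhibitory lectin-like receptor, by 4.02 and 4.35. T cells were called by 2 or more Cd3 UMIs, and cells of the ILC2 cluster were not taken out of the T cells without Foxp3. In the cluster 7 BLM and 8 naive cells outside the rule had 2 or more Cd3 UMIs. Other lymphocytes shared part of these higher levels. Against T cells with Foxp3, Klrg1 was at -0.59 (-1.13 to -0.08) in BLM and -0.27 (-1.10 to 0.62) in naive, and Il2ra at -0.03 (-0.39 to 0.31) and 1.82 (0.94 to 2.86). Against NK cells, Id2 was at 0.34 (-0.005 to 0.68) and 0.28 (0.002 to 0.55) and Klrg1 at 0.60 (-0.05 to 1.23) and 0.33 (-0.19 to 0.82), while Rora was higher in ILC2 than in either (1.49 and 0.81 against T cells with Foxp3, 3.22 and 3.65 against NK cells). Against T cells without Foxp3, Arg1, the arginase gene, gave 1.57 in BLM and 5.58 in naive. Its level in ILC2 was close in both libraries (590 and 526 CPM), while the T cells held 198 CPM in BLM and 11.02 in naive. Arg1 was also seen in 7.28% of BLM and 0.114% of naive B cells. The part of free RNA in its levels was not tested. Il7r, the receptor for the survival cytokine IL-7, was below the T cell level in BLM (-0.41, -0.76 to -0.07). In naive it was above that level (0.44, 0.25 to 0.63). With every cell that met the rule, the same ratios in BLM were 1.12 for Rora, 1.79 for Il2ra, 2.73 for Klrg1 and -1.24 for Il7r.

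The type 2 cytokine genes were used by the rule and are given as a description. Il5 was seen in 19 of 25 BLM ILC2 (lowest 0, median 2, highest 92 UMIs) and in 22 of 73 naive ILC2 (lowest 0, median 0, highest 46). The BLM cells thus had the higher median and the highest cells, but their ranges overlapped. After thinning, 52.3% of BLM and 17.8% of naive ILC2 kept an Il5 UMI, and no B cell of either library had one. The summed level was 3176 CPM against 572 CPM in naive cells (log2 ratio 2.47, 2.14 to 2.82). One BLM cell held 29.97% of the BLM UMIs and 1 naive cell 46.9% of the naive ones, and without these the log2 ratio was 2.97. In all cells that met the rule it was 1.17.

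Il13 was rarer. It was seen in 8 of 25 BLM ILC2, up to 33 UMIs in a cell, and in 4 of 73 naive ILC2, up to 12. Its summed level was 569 CPM in BLM and 111 in naive (log2 ratio 2.36, 1.58 to 3.19). Single cells held 60.0% and 63.2% of these UMIs, and without them 22 and 7 UMIs were left, a log2 ratio of 2.58 (1.30 to 4.05). The ratio was 1.21 over all cells that met the rule. All 4 naive cells with Il13 also had Il5, as did 6 of the 8 BLM cells. Il4 had no UMI in the 98 cells, which allows up to 31.0 CPM in BLM and 17.5 in naive, and Il6 had 1 UMI, in a BLM cell.

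The cluster was formed without the rule genes, so its 40 BLM and 121 naive cells give their levels without the limits the rule set. There Il5 was seen in 25 of 40 BLM and 35 of 121 naive cells and Il13 in 12 and 5. The log2 ratios were 2.50 (2.20 to 2.82) for Il5, 1.8 (1.17 to 2.46) for Il13 and 1.10 (0.74 to 1.46) for Calca.

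Il5 and Il13 lie close together on chromosome 11, in the cytokine cluster that Gata3 is known to act on. In the GRCm38 annotation (GENCODE vM21) Il13 spans chr11:53631324-53634702 on the minus strand and Il5 chr11:53720794-53725106 on the plus strand, and Areg lies at chr5:91139599-91148432. The 250 bases before each start site are printed here from RefSeq (GRCm38.p6), 5′ to 3′ along the gene, since Il5 and Il13 define the type 2 response and Areg is the repair factor of ILC2. Capitals mark the motifs searched on both strands, which were the GATA hexamers AGATAA or AGATAG and likewise TGATAA or TGATAG, the cyclic AMP response element TGACGTCA, and for AP-1 the motif TGACTCA with its other strand TGAGTCA.
Il5, chr11:53720544-53720793, plus strand: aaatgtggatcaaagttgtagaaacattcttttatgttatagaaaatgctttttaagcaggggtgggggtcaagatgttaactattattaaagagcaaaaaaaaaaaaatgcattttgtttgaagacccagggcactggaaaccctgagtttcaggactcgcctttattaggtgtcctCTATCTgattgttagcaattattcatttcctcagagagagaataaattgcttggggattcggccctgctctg
Il13, chr11:53634703-53634952, minus strand: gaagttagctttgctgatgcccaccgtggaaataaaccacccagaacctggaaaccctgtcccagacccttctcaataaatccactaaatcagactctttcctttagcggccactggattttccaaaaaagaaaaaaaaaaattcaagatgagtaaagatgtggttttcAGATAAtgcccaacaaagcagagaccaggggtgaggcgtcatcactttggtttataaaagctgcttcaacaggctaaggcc
Areg, chr5:91139349-91139598, plus strand: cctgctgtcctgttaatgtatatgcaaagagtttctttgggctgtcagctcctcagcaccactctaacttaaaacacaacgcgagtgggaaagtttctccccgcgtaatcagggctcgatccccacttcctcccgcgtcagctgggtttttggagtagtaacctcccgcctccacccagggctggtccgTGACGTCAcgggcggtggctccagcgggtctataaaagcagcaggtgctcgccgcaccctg
The Il5 window held AGATAG on the opposite strand, 67 to 72 bases before the start, and the Il13 window AGATAA on the gene's own strand, 76 to 81 bases before it. The Areg window held TGACGTCA 54 to 61 bases before its start and no GATA hexamer. A GATA hexamer occurred in 26.5% of all 32851 promoter windows of this length, TGACGTCA in 1.55% and an AP-1 motif in 4.46%, and none of the 3 windows held the last. These matches describe the letters only.

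The other rule genes moved less. Gata3 was at 2100 CPM in BLM and 2120 in naive (log2 ratio -0.01, -0.27 to 0.24), with 1 to 23 and 1 to 24 UMIs per cell. Il1rl1 was lower in BLM at 1159 against 1828 CPM (-0.66, -0.98 to -0.34), and Hlf, a circadian transcription factor, at 590 against 894 CPM (-0.60, -1.06 to -0.15). Rnf128 was at 424 and 374 CPM (0.18, -0.42 to 0.77). Calca, which encodes the neuropeptide CGRP, was seen in 13 of 25 BLM ILC2 (lowest 0, median 3, highest 18 UMIs) and 16 of 73 naive ILC2 (0, 0 and 18). Its level was 1179 and 613 CPM (0.94, 0.55 to 1.34). The ratios over all cells that met the rule were -1.04 for Gata3, -1.85 for Il1rl1, -1.67 for Hlf, -0.21 for Rnf128 and -0.37 for Calca.

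**Figure D2:**
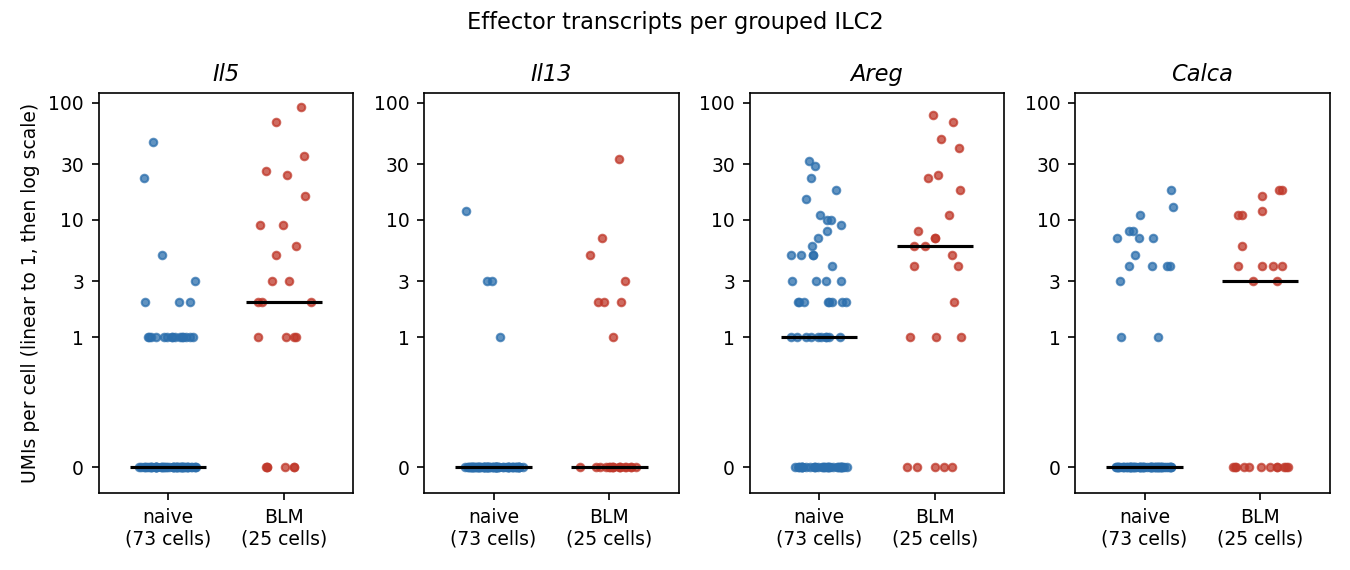
UMIs of Il5, Il13, Areg and Calca in each grouped ILC2 of the naive (73 cells, blue) and BLM (25 cells, red) library, on an axis that is linear to 1 and logarithmic above. The black bar is the median over cells. The medians are 0 and 2 for Il5, 0 and 0 for Il13, 1 and 6 for Areg, and 0 and 3 for Calca in naive and BLM. Points of both libraries overlap for every gene.

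Across the genes that could be ranked (at least 20 UMIs in total, and detection in at least 10% of the ILC2 of whichever library had more), 2243 in the grouped cells, 112 (4.99%) were 2-fold or more higher in BLM and 211 (9.41%) 2-fold or more lower. The whole interval lay above 0 for 186 genes and below 0 for 178, so the excess of lower genes was not seen there. It lay past 2-fold for 17 and 7 genes. For all cells that met the rule, 3797 genes were ranked, with 597 (15.7%) higher and 477 (12.6%) lower, a count in which the macrophage genes described above take part.

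Secreted factors had more members 2-fold or more higher in BLM than any other list in the grouped cells, but the lists differ in size. Cell cycle genes had 2 of 4 ranked and lipid and arginine metabolism genes 3 of 7. Over all ranked genes of the grouped cells 4.99% were higher and 9.41% lower, and these shares stand behind every list count below. The lists were chosen with earlier results of these data known, so the counts describe the lists and cannot show enrichment. The detection limit for ranking could be met in either library. BLM had fewer ILC2, so a gene high in BLM could be ranked on fewer cells than a gene high in naive. Of 30 listed genes outside the rule, 11 were ranked in the grouped cells, 5 of them 2-fold or more higher and 2 lower, with a median log2 ratio of 0.96 against -0.04 over all ranked genes. Among all cells that met the rule the list had 6 higher and 3 lower of 14 ranked, with a median of 0.53. Areg, the gene of amphiregulin, was seen in 20 of 25 BLM ILC2 (lowest 0, median 6, highest 78 UMIs) and 39 of 73 naive ILC2 (0, 1 and 32). Most BLM cells lay above the naive median, but the ranges overlapped. Thinned to 1000 UMIs the shares were 66.4% and 40.9%, against 0.553% and 0.427% of B cells. Its level was 3766 CPM in BLM and 1402 in naive (log2 ratio 1.43, 1.19 to 1.67). Over all cells that met the rule the ratio was 0.15.

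Ccl1, a chemokine that acts on Ccr8, was seen in 10 of 25 BLM and 5 of 73 naive ILC2, at 673 and 35.0 CPM (log2 ratio 4.26, 3.06 to 5.76). One BLM cell held 35 of its 65 UMIs, and without the highest cell of each library the ratio was 3.79. Cxcl2 and Cxcl3, neutrophil chemokines, were at 2297 against 905 CPM (1.34, 1.04 to 1.65) and at 569 against 23.4 CPM (4.61, 3.17 to 6.53). Cxcl3 was in 3 cells of each library. Cxcl2 was also seen in 23.7% of BLM and 14.4% of naive B cells, and the part of free RNA in its level was not tested. Csf2 was at 1428 and 777 CPM (0.88, 0.52 to 1.23) and was seen in 16 of 25 and 27 of 73 cells. Over all cells that met the rule its ratio was -0.49, the opposite direction. The same 16 BLM cells held Csf2 in both sets, and the BLM cells outside the cluster added only UMIs of other genes. Ccl5 (166 and 29.2 CPM) and the IL-6 family cytokine gene Lif (341 and 175 CPM, 0.96, 0.20 to 1.73) were higher in BLM as well, although over all cells that met the rule Lif was at -0.33. Tgfb1 (41.4 and 117 CPM, -1.50, -3.51 to 0.08) and Bmp7 (82.8 and 175 CPM, -1.08, -2.42 to 0.08) had lower values.

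**Figure D3:**
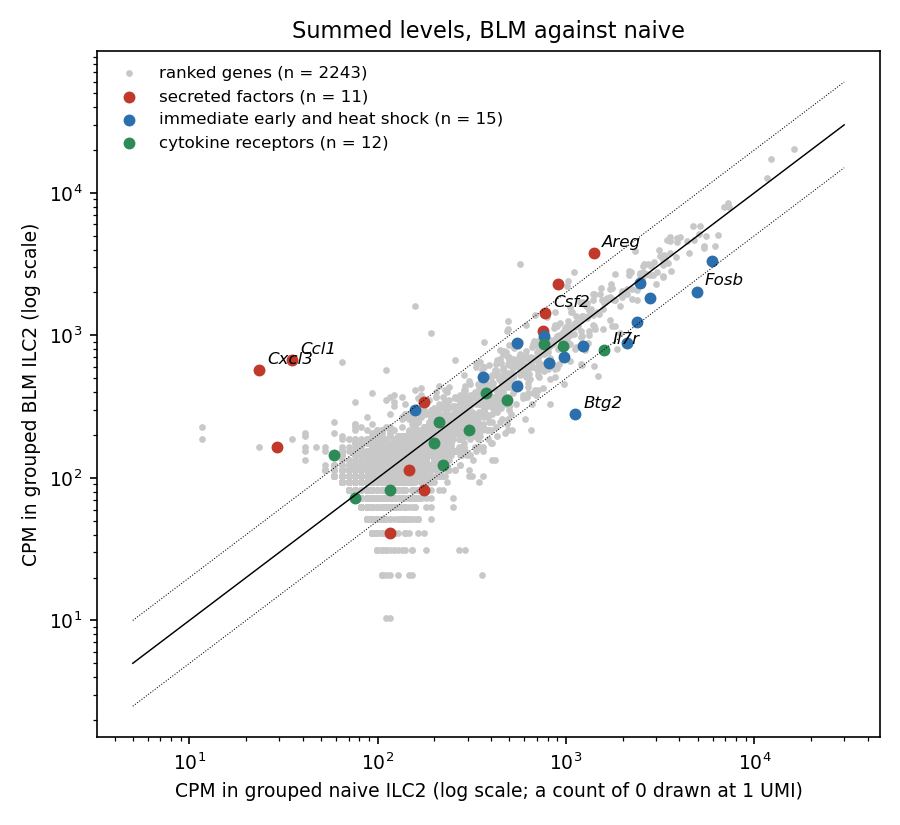
Summed level of each of the 2243 ranked genes in grouped naive (horizontal) and BLM (vertical) ILC2, in CPM on log axes. The solid line marks equal levels and the dotted lines a 2-fold difference. Secreted factors (red, 11 genes) lie mostly above the line, 5 of them past 2-fold, while immediate early genes (blue, 15) lie mostly below it and cytokine receptors (green, 12) near it.

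Among genes of lipid mediators, Ptgs2, the inducible cyclooxygenase that starts prostaglandin synthesis, was seen in 12 of 25 BLM ILC2 (lowest 0, median 0, highest 75 UMIs) and 4 of 73 naive ILC2 (0, 0 and 23). It was at 1614 CPM in BLM and 158 in naive (log2 ratio 3.36, 2.76 to 4.002), or 1.51 over all cells that met the rule. Single cells held 48.1% and 85.2% of its UMIs, and without them the ratio was 5.21. Alox5, which starts leukotriene synthesis, was at 352 and 187 CPM (0.91, 0.17 to 1.66), but at 0.024 over all cells that met the rule. The leukotriene receptor genes Cysltr1 (93.1 and 234 CPM, -1.33, -2.56 to -0.26) and Ltb4r1 (41.4 and 111 CPM, -1.42, -3.44 to 0.17) had lower values in BLM. For Ltb4r1 the direction turned over all cells of the cluster, at 0.14. The list had 5 ranked genes of 16, 1 higher and 2 lower past 2-fold, and 3 and 3 of 8 over all cells that met the rule.

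Receptors for survival and activating cytokines were near or below the naive level. Of 25 listed genes outside the rule, 12 were ranked, 1 of them higher and 1 lower past 2-fold, with a median of -0.18 (1 and 6 of 17 over all cells that met the rule). Il7r was seen in 20 of 25 BLM ILC2 (lowest 0, median 3, highest 11 UMIs) and 68 of 73 naive ILC2 (0, 4 and 10). Its level was 786 CPM in BLM and 1589 in naive (log2 ratio -1.01, -1.40 to -0.64), and -1.68 over all cells that met the rule. Il2ra (869 and 759 CPM, 0.19, -0.22 to 0.60), Il2rg (848 and 958 CPM), Il9r (176 and 199 CPM) and Ifngr1 (352 and 485 CPM) had intervals that held 0. Il18rap, an IL-18 receptor subunit, was at 145 and 58.4 CPM (1.31, 0.03 to 2.64), and -0.0057 over all cells that met the rule. Il17rb, a receptor subunit for IL-25, held 7 and 10 UMIs, and Il18r1, the other IL-18 receptor subunit, 1 and 2, too few to give a direction.

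ILC2 markers outside the rule differed in both directions. Of 20, 15 were ranked, with 1 (Areg) higher and 3 lower past 2-fold and a median of 0.07. Over all cells that met the rule 16 were ranked, 0 higher and 8 lower. Lower were Il7r, Bcl11b, a transcription factor of T cells and ILC2 (145 and 298 CPM, -1.04, -2.01 to -0.17), and Ccr8 (114 and 234 CPM, -1.04, -2.15 to -0.05). Thy1, a surface glycoprotein, was at 259 and 491 CPM (-0.92, -1.63 to -0.26), and Icos at 890 and 1303 CPM (-0.55, -0.93 to -0.18). Rora was at 2131 and 1711 CPM (0.32, 0.05 to 0.58), Id2 at 1179 and 876 CPM (0.43, 0.06 to 0.79), Klrg1 at 383 and 275 CPM (0.48, -0.18 to 1.13) and Arg1 at 590 and 526 CPM (0.17, -0.34 to 0.66). Over all cells that met the rule, Rora (-0.84), Id2 (-0.29), Klrg1 (-0.67) and Il2ra (-1.06) pointed the other way.

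Chemokine receptors and residency genes split. Of 25 listed, 14 were ranked, 2 higher and 2 lower past 2-fold (2 and 8 of 16 over all cells that met the rule). Cxcr4, the receptor for Cxcl12, was seen in 20 of 25 BLM ILC2 (lowest 0, median 3, highest 13 UMIs) and 22 of 73 naive ILC2 (0, 0 and 3). Its level was 1035 CPM in BLM and 193 in naive (log2 ratio 2.42, 1.84 to 3.04), and 1.598 over all cells that met the rule. It was also common in B cells (71.4% and 63.0%), whose own level was 734 and 466 CPM. Ccr2, a receptor for monocyte chemokines that lung ILC2 also carry, was at 1241 and 2418 CPM (-0.96, -1.27 to -0.67), and -2.01 over all cells that met the rule. Rgs1, a brake on chemokine receptor signalling, was at 1107 and 491 CPM (1.17, 0.75 to 1.604). Itgb3, an integrin subunit gene, was at 82.8 and 193 CPM (-1.22, -2.54 to -0.08). Cxcr6 was at 528 and 713 CPM (-0.43, -0.93 to 0.05).

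Immediate early genes, which are switched on within minutes of a stimulus and also while tissue is taken apart, were mostly lower in BLM. Of 22 listed genes with heat shock genes, 15 were ranked, 0 higher and 3 lower past 2-fold, with 11 of the 15 below 0 and a median log2 ratio of -0.46 (2 and 11 of 20, median -1.10, over all cells that met the rule). Btg2, an antiproliferative gene, was at 279 CPM in BLM and 1116 in naive (-1.998, -2.64 to -1.41). Fosb, an AP-1 subunit gene, was seen in 23 of 25 BLM ILC2 (lowest 0, median 5, highest 60 UMIs) and 69 of 73 naive ILC2 (0, 9 and 34), at 2028 and 4930 CPM (-1.28, -1.51 to -1.06). Zfp36, whose product destabilises cytokine mRNA, was at 879 and 2109 CPM (-1.26, -1.62 to -0.92), and Nr4a1, a nuclear receptor gene induced by activation, at 3331 and 5946 CPM (-0.84, -1.02 to -0.65). Fos did not follow, at 2348 and 2465 CPM (-0.07, -0.31 to 0.17), and Atf3 had the opposite sign, at 300.0 and 158 CPM (0.93, 0.12 to 1.74). In T cells without Foxp3 of the same libraries the ratios were -0.55 for Btg2, -0.67 for Fosb, 0.20 for Zfp36 and -0.11 for Nr4a1. Whether the libraries differed in handling was not tested.

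**Figure D4:**
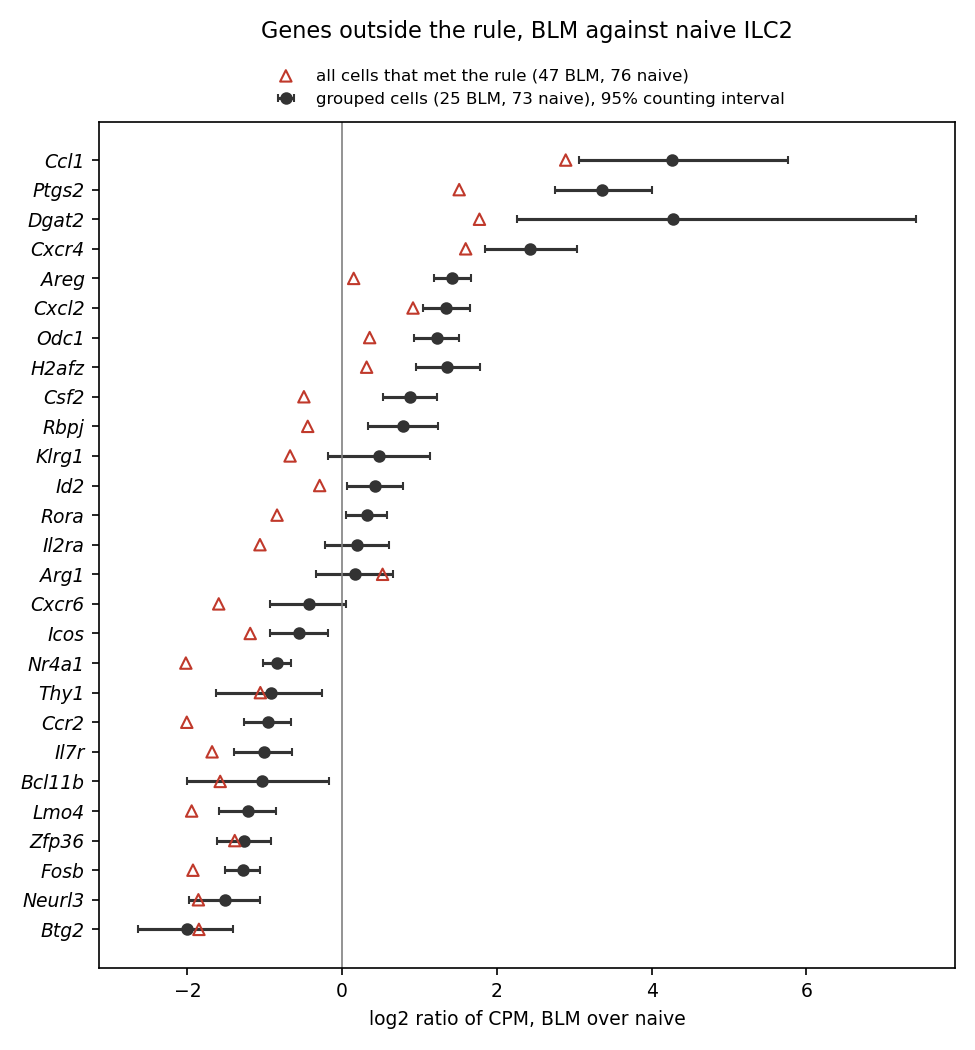
The log2 ratio of CPM, BLM over naive, for 27 genes outside the rule. Black points with bars are the grouped ILC2 with the 95% counting interval, and open red triangles the value over all cells that met the rule. Ccl1, Ptgs2, Dgat2 and Cxcr4 are highest and Btg2 lowest. For Csf2, Rbpj, Klrg1, Id2, Rora and Il2ra the triangle lies on the other side of 0.

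Of 28 listed transcription factors 15 were ranked, 1 higher and 2 lower past 2-fold, with a median of -0.01 (2 and 3 of 16, median -0.71, over all cells that met the rule). Lmo4, a LIM domain cofactor, was at 807 and 1875 CPM (log2 ratio -1.22, -1.59 to -0.86). Nfil3, a factor needed for innate lymphoid development, was at 269 and 87.6 CPM (1.62, 0.65 to 2.64), and Rbpj, the partner of Notch, at 859 and 497 CPM (0.79, 0.34 to 1.24). For Rbpj the ratio over all cells that met the rule was -0.44. Nfkbia (4707 and 4790 CPM) and Ets1 (983 and 929 CPM) were close in both libraries, while over all cells that met the rule Ets1 was at -0.80. Rel, an NF-kappa-B subunit gene outside the list, was at 393 and 93.5 CPM (2.07, 1.20 to 3.01).

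Genes of lipid and polyamine metabolism were mostly higher in BLM. Of 16 listed, 7 were ranked, 3 higher and 0 lower past 2-fold, with a median of 0.29 (4 and 1 of 11 over all cells that met the rule). Odc1, the first enzyme of polyamine synthesis, was seen in 23 of 25 BLM ILC2 (lowest 0, median 7, highest 32 UMIs) and 41 of 73 naive ILC2 (0, 1 and 17). Its level was 2400 and 1028 CPM (log2 ratio 1.22, 0.93 to 1.51). Dgat2, a triglyceride synthesis enzyme, was seen in 9 of 25 and 2 of 73 cells, at 228 and 11.7 CPM (4.28, 2.26 to 7.42). Of 20 glycolysis and hypoxia genes 10 were ranked, none of them past 2-fold in either direction, with 7 of 10 above 0 and a median of 0.42 (2 and 1 of 13 over all cells that met the rule). Gapdh was at 621 and 391 CPM (0.67, 0.14 to 1.19) and Hilpda, a hypoxia-induced lipid droplet gene, at 1769 and 1548 CPM (0.19, -0.09 to 0.48), or -0.25 over all cells that met the rule.

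Among cell cycle genes, Top2a, a DNA topoisomerase of dividing cells, was seen in 7 of 25 BLM ILC2 and 1 of 73 naive ILC2. Thinned shares were 11.8% and 0.447%, against 2.68% and 2.67% of B cells, so the naive share lay below that of B cells. At least 3 of 12 cell cycle genes were seen together in 2 of 25 BLM and 0 of 73 naive cells, and in 4 of 40 and 0 of 121 cells of the whole cluster, where 0 of 121 allows a share of cells with such a detection of up to 2.48% (3 counts). These counts are not thinned, and BLM cells were deeper. H2afz and Pcna, genes also used outside division, were seen more widely, in 21 and 7 of 25 BLM and 39 and 14 of 73 naive ILC2. Of 16 listed genes 4 were ranked, H2afz (1262 and 491 CPM, 1.36, 0.95 to 1.78) and Pcna (217 and 87.6 CPM, 1.31, 0.28 to 2.37) among them past 2-fold, and 0 were lower (1 and 0 of 6 over all cells that met the rule).

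The other lists moved little or rested on few UMIs. Costimulation and checkpoint genes had 7 ranked of 20, 0 higher and 1 lower (1 and 4 of 9 over all cells that met the rule), with Pdcd1, the gene of PD-1, at 341 and 181 CPM (log2 ratio 0.91, 0.16 to 1.67), and -0.041 over all cells that met the rule. Among receptors for neuropeptides 2 of 10 were ranked and neither was past 2-fold. These were Ramp1 and Ramp3, receptor partners for CGRP and adrenomedullin, at 362 and 263 CPM (0.46, -0.22 to 1.13, or -0.44 over all cells that met the rule) and at 341 and 362 CPM (-0.09, -0.74 to 0.55). Nmur1, the neuromedin U receptor gene, held 2 and 1 UMIs. Interferon response genes had 2 ranked of 15, neither past 2-fold (2 and 1 of 5 over all cells that met the rule). S100, annexin and cytoskeleton genes had 15 ranked of 16, 2 higher and 0 lower (5 and 0 of 16). Capg, an actin-capping protein gene, was at 372 and 134 CPM (1.47, 0.68 to 2.29) and Tmsb10 at 1076 and 485 CPM (1.15, 0.72 to 1.58). MHC class II genes had 4 ranked of 7, 0 higher and 2 lower (1 and 3 of 6), with H2-Aa at 104 and 222 CPM (-1.10, -2.27 to -0.07). Class II genes are abundant in B cells, whose Igkc was also higher in naive ILC2, and the part of free RNA in this difference was not tested.

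By the rule for named genes the 12 highest in BLM were Cxcl3, Ccl1, Ptgs2, Lilr4b, Dgat2, Il5, Cd83, Cxcr4, Il13, Tent5a, Rel and Stx11. Lilr4b, an inhibitory receptor gene, was seen in 17 of 25 BLM ILC2 (lowest 0, median 1, highest 18 UMIs) and 8 of 73 naive ILC2 (0, 0 and 3), at 652 and 64.2 CPM (log2 ratio 3.34, 2.41 to 4.42). Cd83, a surface molecule of activated cells, was at 186 and 11.7 CPM, but 1 cell held 66.7% of its BLM UMIs. Tent5a, a poly(A) polymerase gene, was at 341 and 75.9 CPM (2.17, 1.20 to 3.22) and Stx11, a gene of granule release, at 166 and 23.4 CPM (2.83, 1.19 to 4.86).

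The 12 lowest were Igkc, Rgcc, Usp38, Man1a, Btg2, Neurl3, Fosb, Zfp36, Gimap3, Lamtor2, Tut4 and Ap3d1. Neurl3, a ubiquitin ligase gene, was seen in 17 of 25 BLM ILC2 (lowest 0, median 1, highest 9 UMIs) and 55 of 73 naive ILC2 (0, 2 and 22), at 517 and 1472 CPM (log2 ratio -1.51, -1.98 to -1.07). In T cells without Foxp3 it was higher in BLM (0.73, 0.61 to 0.85). Rgcc was at 31.0 and 292 CPM (-3.23, -5.56 to -1.60), but in all cells that met the rule its ratio was -0.34. Man1a, a Golgi mannosidase gene, was at 31.0 and 269 CPM (-3.11, -5.44 to -1.48). Usp38 had 20 UMIs in naive (117 CPM) and none in BLM, where 3 counts would be 31.0 CPM. Gimap3, a GTPase gene of lymphocytes, was at 217 and 654 CPM (-1.59, -2.34 to -0.91). The lowest over all cells that met the rule were Igkc, Klf5, H2-Eb1, Nr4a1, Tcrg-C4, Gimap3, Fosb, Ccr2, Tmem64, H2-Ab1, Lmo4 and Sema6d.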

How the data were processed

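Per the file headers, the deposited counts were made by the authors with the BD WTA Rhapsody Analysis Pipeline version 1.8 on GRCm38 with GENCODE vM19. They are whole UMI counts per cell and gene with no normalisation, at 22490782 UMIs in 4714 barcodes (BLM) and 18019004 in 4062 (naive), with 20235 genes in both tables. A gene absent from a table was counted as 0 there. The 2 tables were made on different days. The authors' own quality filter and integration were not used here.

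The members, gene lists and named-gene rule were chosen with earlier results of these data known. Grouping of cells into an ILC2 cluster was added after the values were seen. Cells were normalised, log-transformed and clustered over both libraries in Scanpy 1.11.5 (2000 variable genes, 30 components, Leiden at resolution 1). Doublets were kept, and Scrublet scores served an alternative. Levels are summed UMIs as CPM of the same cells. Intervals are exact Poisson, Clopper-Pearson for shares and its conditional form for ratios. No test was run, because each group has 1 library and cells are not replicates. Names were drawn from the rule genes, 17 genes of ILC2 biology, up to 3 members each way of a list with 10 or more UMIs, the 12 genes furthest from 0 each way by the nearer interval end, and the 12 leading genes against all other cells. A few others are named after their values were seen (Hilpda, Fos, Nfkbia, Ets1, Il2rg, Il9r, Ifngr1). Thinned shares are exact means over draws of 1000 UMIs. The ratio code was tested on simulated data.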

Additional observations from a re-analysis of the deposited data

Results flagged for a closer look

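For 11 named genes the grouped ILC2 and the T cells without Foxp3 of the same libraries had log2 ratios of BLM over naive of opposite sign, with both counting intervals off 0. The difference between the cell types was not tested, since each group has 1 library. Higher in BLM ILC2 and lower in BLM T cells were Ccr7 (4.41 and -0.56, with 11 of its 12 BLM UMIs in 1 cell), Cd83 (3.995 and -1.54), Ccl5 (2.50 and -0.33), Atf3 (0.93 and -1.55) and Alox5 (0.91 and -0.74). Lower in BLM ILC2 and higher in BLM T cells were Neurl3 (-1.51 and 0.73), Zfp36 (-1.26 and 0.20), Il1rl1 (-0.66 and 0.55), Hlf (-0.60 and 1.49), Junb (-0.59 and 0.14) and Icos (-0.55 and 0.15). Il1rl1 and Hlf belong to the rule, and their values are a description. The T cell interval for Il1rl1 (0.02 to 1.09) began close to 0. These T cells could include up to 7 BLM and 8 naive cells of the ILC2 cluster with 2 or more Cd3 UMIs. Their part in the T cell ratios was not tested.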

How the results depend on the processing

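No paired analysis was possible because each group has 1 library. For all cells that met the rule (47 BLM and 76 naive cells, log2 ratio of shares -0.90, 597 genes 2-fold higher and 477 lower), the limits on the sum, mitochondrial UMIs, genes, doublets, Cd3, thinning, scaling and weighting kept every number of cells and count of genes within 1.5 times. Keeping only grouped cells gave 25 BLM cells, a log2 ratio of -1.75 and 112 and 211 genes. The second clustering gave 27, -1.60, 119 and 197, and all cells of the cluster 121 naive cells, -1.80 and 186 genes higher. Leaving out cells over 2% macrophage UMIs gave 194 and 221 genes. Ranking from 10 UMIs gave 1080 and 949 genes, and a 1.5-fold limit 976 and 963. For the grouped cells (25 and 73), all cells of the cluster gave 40 and 121 cells and 186 and 338 genes, ranking from 10 UMIs 351 and 603, the 1.5-fold limit 325 and 472, and no Cd3 UMI 140 genes lower. Over all cells that met the rule, several genes whose grouped interval lay off 0 had the opposite sign, among them Csf2, Calca, Rora, Id2, Rbpj, Lif, Pdcd1 and Il18rap. On the grouped cells, the limits of 10% mitochondrial UMIs, of 500 genes and on doublet scores removed no cell. Nor did the sum over Gata3, Il1rl1, Rnf128 and Hlf, so these alternatives could not change the ratio of a gene. Within the other alternatives run on the grouped cells, no named gene whose interval lay off 0 changed sign. Among those whose interval held 0, signs turned with all cells of the cluster for Ltb4r1 (-1.42 to 0.14), Ero1l (-0.49 to 0.17), Hmgb2 (-0.33 to 1.05), Tubb5 (-0.46 to 0.72), Hk2 (-0.91 to 0.36), Rnf128 (0.18 to -0.15), Il17rb (0.31 to -0.46) and Cd74 (0.21 to -0.33), and elsewhere for Gata3, Fos, Ramp3, Il18r1, Vipr2 and, without its highest cell, Rnf128.

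Over all rule cells, values whose interval lay off 0 and that reversed with the grouped cells, the second clustering and all cells of the cluster were, in that order, Rora (0.32, 0.26, 0.15), Klrg1 (0.48, 0.58, 0.92), Il2ra (0.19, 0.14, 0.15), Csf2 (0.88, 0.80, 1.35), Rbpj (0.79, 0.76, 0.70), Alox5ap (-0.63, -0.58, -0.33) and Lyz2 (-0.26, -0.23, -0.19). Cd74 reversed in the first 2 (0.21 and 0.13), with a sum of 5 or more (0.75) and without its highest cell (1.36). Ltb4r1 (0.14), Ero1l (0.17) and Hmgb2 (1.05) reversed only with all cells of the cluster. Without cells over 2% macrophage UMIs the values were Rora 0.070, Klrg1 0.26, Arg1 -0.13, Csf2 0.44, Rbpj 0.27, Alox5ap -1.10 and Lyz2 -0.37. As a mean over cells Klrg1 was 0.14 and Arg1 -0.010, and with a sum of 2 or more Ccl5 was -0.018. Values whose interval held 0 over all rule cells also turned with the grouped cells, for Calca (-0.37 to 0.94), Id2 (-0.29 to 0.43), Lif (-0.33 to 0.96), Pdcd1 (-0.041 to 0.91) and Rnf128 (-0.21 to 0.18), among others. The cause was not tested. Depth limits any gene under about 20 UMIs in the 98 cells.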
